A study of Mus musculus with 4 samples.

Results

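Bach2, Tcf7, Klf2, Ccr7, Id3 and Foxp1 are 6 genes associated with naive and quiescent T cells, and they were examined out of 21631 protein-coding genes. They were chosen by name among genes known to hold accessible regions in these data, so their numbers of regions are descriptions and carry no test. Every peak of 4 deposited lists was taken if it lay in the gene body or within 20 kb on either side (the locus). This gave 24 of 34175 peaks, which merged into 15 of 15237 regions, a region being a set of peaks that overlap by at least 1 bp.

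The data were ATAC-seq libraries, in which the transposase Tn5 marks accessible DNA, from CD8+ lymphocytes of Balb/c mice. The series title calls the cells tumour-infiltrating. There was 1 library for each of 4 conditions: stimulated with phenelzine, stimulated without it, unstimulated with phenelzine, and unstimulated and untreated. Stimulation lasted 2 h and used PMA at 1 mg/mL and ionomycin at 10 mM, as labelled. These agents activate protein kinase C and raise calcium without engaging the T cell receptor. Phenelzine, a drug that inactivates monoamine oxidases, also blocks LSD1, an enzyme that removes methyl groups from histone H3. Its dose and duration, the tumour, the sort and the number of animals were not stated in the labels. With 1 library per condition no difference has a replicate check, and animals and libraries cannot be told apart from treatment.

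Naive and resting T cells are kept out of cell cycle and effector differentiation by a small set of transcription factors, and they circulate through lymph nodes by means of homing receptors. BACH2 is a repressor that binds DNA with small MAF proteins and restrains effector genes. TCF-1, encoded by Tcf7, sustains naive and memory-like T cells. KLF2 drives genes of quiescence and lymphoid recirculation, FOXP1 holds naive T cells in quiescence, ID3 blocks E proteins from binding DNA, and CCR7 is the receptor that guides T cells into lymph nodes. Several of these genes are turned down in effector cells.

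Regions that overlapped an annotated promoter window were present at Klf2 and Id3, 2 of the 5 genes with such a window. Ccr7 had no window listed. Of all protein-coding genes with a window, 34.9% had such a region in any list. The window ran from 250 bases before to 50 bases after a RefSeq start site. The 250 bases before each start site are shown because these are the promoters where the data place accessible DNA. They come from the RefSeq promoter table for GRCm38, which is the reference genome mm10 and not that of Balb/c. Capitals mark the bases inside the peaks of every list that held the region, 4 lists for Klf2 and 3 for Id3. The Klf2 sequence is chr8:72318812-72319061 and the Id3 sequence chr4:136143572-136143821, both on the plus strand.
Klf2: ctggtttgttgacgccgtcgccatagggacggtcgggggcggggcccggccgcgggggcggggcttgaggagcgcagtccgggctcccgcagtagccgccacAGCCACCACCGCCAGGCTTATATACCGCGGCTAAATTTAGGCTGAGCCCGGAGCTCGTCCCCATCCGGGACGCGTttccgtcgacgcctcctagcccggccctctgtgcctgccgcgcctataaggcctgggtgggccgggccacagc
Id3: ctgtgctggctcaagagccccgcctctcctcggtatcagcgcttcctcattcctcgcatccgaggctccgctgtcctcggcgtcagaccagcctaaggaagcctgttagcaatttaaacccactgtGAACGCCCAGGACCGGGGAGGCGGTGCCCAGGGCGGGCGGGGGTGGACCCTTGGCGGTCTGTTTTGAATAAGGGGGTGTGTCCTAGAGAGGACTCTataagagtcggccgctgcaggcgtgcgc

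In Klf2 the shared stretch covered 75 bases, from 148 to 74 bases before the start site. In Id3 it covered 96 bases, from 124 to 29 bases before the start site. GC content over the 250 bases was 71.2% for Klf2 and 62.8% for Id3, against a median of 55.6% over 21045 such windows of 17274 protein-coding genes. Both promoters were therefore richer in GC than the median window.

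A set of 3 short motifs was looked for on both strands of these 250 bases, all chosen after the sequences had been seen. The GC box GGGCGG, a motif bound by SP and KLF factors, occurred 2 times in Klf2 and 2 times in Id3, and 43.1% of all windows held it. In Id3 both matches, which overlapped each other, lay inside the shared stretch, and in Klf2 both lay outside it. The AP-1 motif TGANTCA was in neither window (6.17% of all windows). The letters TATAA occurred 2 times in Klf2 and 1 time in Id3, in each gene once 29 to 25 bases before the start site, and in 20.5% of all windows. The matches describe letters and not binding.

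Each peak carried a fold enrichment over local background and a −log10 q, both the authors' values within one list. The most frequent pair of fold and −log10 p in each list was that of a pileup of 5 overlapping fragments, with background pileups of 0.489 in the stimulated phenelzine list, 0.493 in the stimulated untreated list, 0.471 in the unstimulated phenelzine list and 0.392 in the unstimulated untreated list. Read the same way, the 24 peaks of the 6 loci stood for mean pileups of 4.51 to 7.94 fragments, and 19 of them for 5 after rounding. The exact 95% Poisson interval of a count of 5 runs from 1.62 to 11.7 and covers counting error only. A locus without a peak was therefore below the calling threshold of its list at this depth, and absence of accessibility was not shown. A −log10 q of at least 3 was reached by 4 of the 24 peaks, against 45.9% of all peaks. The median member peak had a −log10 q of 1.84 and lay at percentile 18.2 of its own list.

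**Figure D1:**
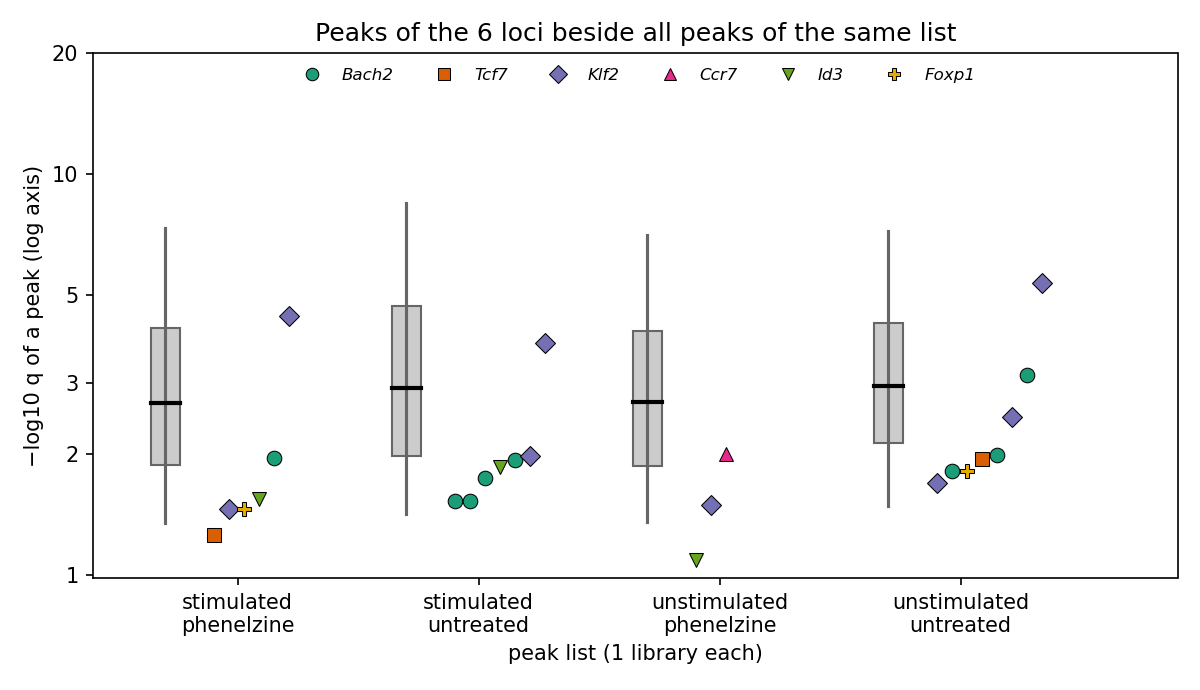
The vertical axis is −log10 q on a log scale and the horizontal axis gives the 4 peak lists, with 1 library each. Grey boxes span the 25th to 75th percentile of all peaks of a list, the black bar is the median and the grey line runs from the 5th to the 95th percentile. Symbols are the 24 peaks of the 6 loci, most of which lie under the median of their list, while the Klf2 promoter peak reaches 4.41, 3.79 and 5.35 in the stimulated phenelzine, stimulated untreated and unstimulated untreated lists.

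Klf2 (chromosome 8, 72319062 to 72321654) was the one gene of the 6 with a region in all 4 lists, and that region was its promoter. The peak at the Klf2 promoter had a fold enrichment of 5.81 with −log10 q 4.41 in stimulated phenelzine cells, 5.36 with 3.79 in stimulated untreated cells, 4.05 with 1.496 in unstimulated phenelzine cells, and 6.42 with 5.35 in unstimulated untreated cells. The unstimulated phenelzine library had the weakest peak here. The implied pileups were 7.65, 7.01, 4.96 and 7.94 fragments, in the same order, and their Poisson intervals overlapped widely (1.62 to 11.7 for the lowest and 3.45 to 15.8 for the highest). Within its own list the Klf2 promoter peak ranked at percentile 78.3, 64.5, 11.4 and 86.4, again in that order.

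A further Klf2 region lay 8 kb before the start site, from 72310995 to 72311129, outside any annotated gene. Its −log10 q was 1.46 in stimulated phenelzine cells, 1.98 in the stimulated untreated library and 2.47 in the unstimulated untreated one, and the unstimulated phenelzine list lacked it. A Klf2 region 890 bp past the end of the gene, from 72322544 to 72322723, was in the unstimulated untreated list alone (fold 4.20, −log10 q 1.69). Klf2 thus had 2, 2, 1 and 3 regions in stimulated phenelzine, stimulated untreated, unstimulated phenelzine and unstimulated untreated cells. At 70.4 regions per Mb of locus it was the most densely covered of the 6, at percentile 97.3 of protein-coding genes, whose median was 10.97. The median of protein-coding genes with a region was 21.8. The Klf2 density rests on 3 regions in a short locus of 42.6 kb.

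Id3 (chromosome 4, 136143822 to 136145392) had its promoter region in 3 lists and no other region in its locus. The Id3 promoter peak had a fold enrichment of 4.01 with −log10 q 1.55 in stimulated phenelzine cells, 4.20 with 1.85 in stimulated untreated cells and 3.74 with 1.09 in unstimulated phenelzine cells. The list of unstimulated untreated cells, which had the lowest background pileup, had no peak there. The implied pileups of 4.97, 5.27 and 4.51 fragments were near the calling threshold, and the Id3 peak of the unstimulated phenelzine list lay at percentile 0.624 of that list.

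Bach2 (chromosome 4, 32238413 to 32586109) had the most regions of the 6, and none of them overlapped the promoter window of its 1 listed start site. That site lies inside the gene record and not at its 5′ end. All 7 lay inside the gene record, which runs over 347697 bp, and 6 of the 7 were in 1 list alone. Stimulated phenelzine cells had 1 Bach2 region, stimulated untreated cells 4, unstimulated phenelzine cells 0 and unstimulated untreated cells 3. Both untreated libraries held more Bach2 regions than either phenelzine library when all peaks were counted. Restricted to peaks with −log10 q of 3 or more, Bach2 had 0, 0, 0 and 1 regions, and with lists of equal length 0, 0, 0 and 3, in the same order, so the stimulated untreated library then had no more than the phenelzine libraries. The cut to equal length left the unstimulated untreated list, the shortest, whole, so its number could not change.

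The Bach2 region held by more than 1 list, from 32570110 to 32570222, lay 332 kb into the gene and overlapped the long noncoding RNA gene Bach2os. It had a fold enrichment of 4.02 with −log10 q 1.53 in the stimulated untreated library, against 5.19 with 3.16 in the unstimulated untreated one. Neither phenelzine list held it. The other Bach2 peaks of stimulated untreated cells lay 12.6, 49.8 and 167 kb from the 5′ end of the gene record, with −log10 q 1.75, 1.53 and 1.94. The peak at 167 kb lay 11.7 kb before the listed start site. Those of unstimulated untreated cells lay at 65.5 and 153 kb, with −log10 q 1.99 and 1.82. The single Bach2 peak of stimulated phenelzine cells, at 12.035 kb (fold 4.29, −log10 q 1.95), ended 263 bp before the nearest peak of stimulated untreated cells, so these neighbouring peaks counted as separate regions.

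**Figure D2:**
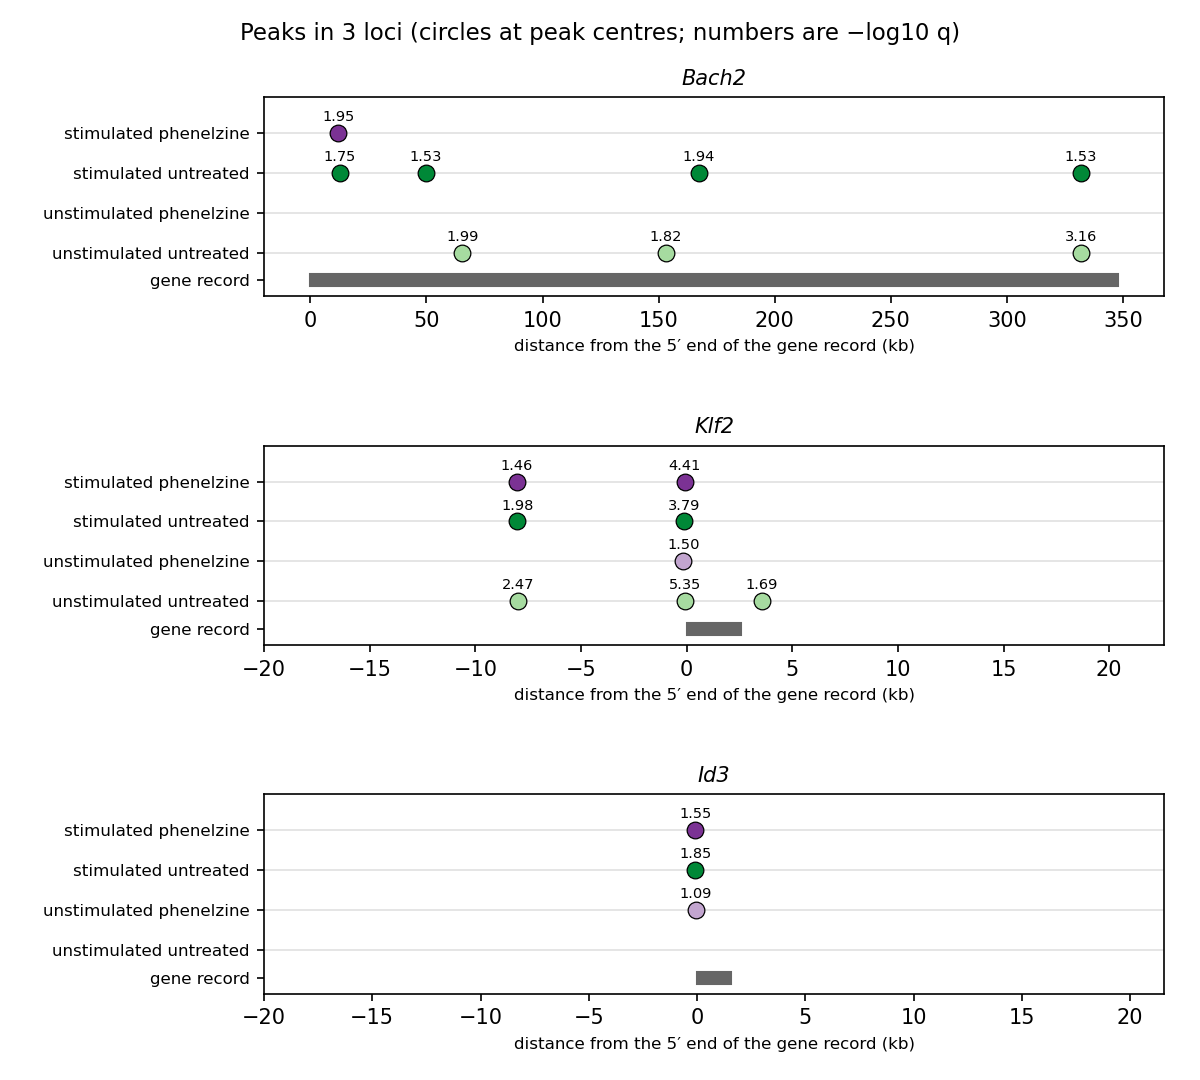
The horizontal axis of each panel is the distance in kb from the 5′ end of the gene record, drawn as a grey bar, and each row is a peak list. Circles stand at peak centres and the numbers are −log10 q. In Bach2 the peaks are scattered over the gene and absent from the unstimulated phenelzine list, whereas in Klf2 and Id3 peaks of several lists stand above each other at the start site.

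Foxp1 (chromosome 6, 98925342 to 99522746) had 2 regions in a locus of 637 kb, or 3.14 per Mb, the lowest density of the 6. One region, from 99343961 to 99344034, was in stimulated phenelzine cells alone (fold 4.03, −log10 q 1.46). The other, from 99172058 to 99172131, was in unstimulated untreated cells alone (fold 4.30, −log10 q 1.82). Both lay inside the gene, 77.5 kb before and 94.4 kb after the nearest of 3 listed start sites, and no start site of Foxp1 had a region.

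Tcf7 (chromosome 11, 52246527 to 52283383) had no region in its body in any list. The single region of its locus, from 52231654 to 52232079, lay 14448 bp beyond the 3′ end of Tcf7, inside the neighbouring gene Skp1 and 1132 bp from an end of it. Skp1 encodes a subunit of SCF ubiquitin ligases. This region had a fold enrichment of 3.83 with −log10 q 1.25 in stimulated phenelzine cells and 4.39 with 1.95 in unstimulated untreated cells, and the peaks of these lists overlapped by 83 bp. Assignment of this region to Tcf7 rests on distance alone.

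Ccr7 (chromosome 11, 99144199 to 99155077) had 1 region, from 99138981 to 99139051, which was in unstimulated phenelzine cells alone. It lay 5148 bp outside the gene (fold 4.36, −log10 q 2.00), and no list had a peak in the Ccr7 body. In the promoter table, which listed 5 of the 6 genes and not Ccr7, 2 genes had a promoter region in the stimulated phenelzine list, 2 in the stimulated untreated list, 2 in the unstimulated phenelzine list and 1 in the unstimulated untreated list. The shares of all protein-coding genes in the table were 27.8%, 29.4%, 26% and 23.3%, in the same order, and 34.9% had a promoter region in any list.

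**Figure D3:**
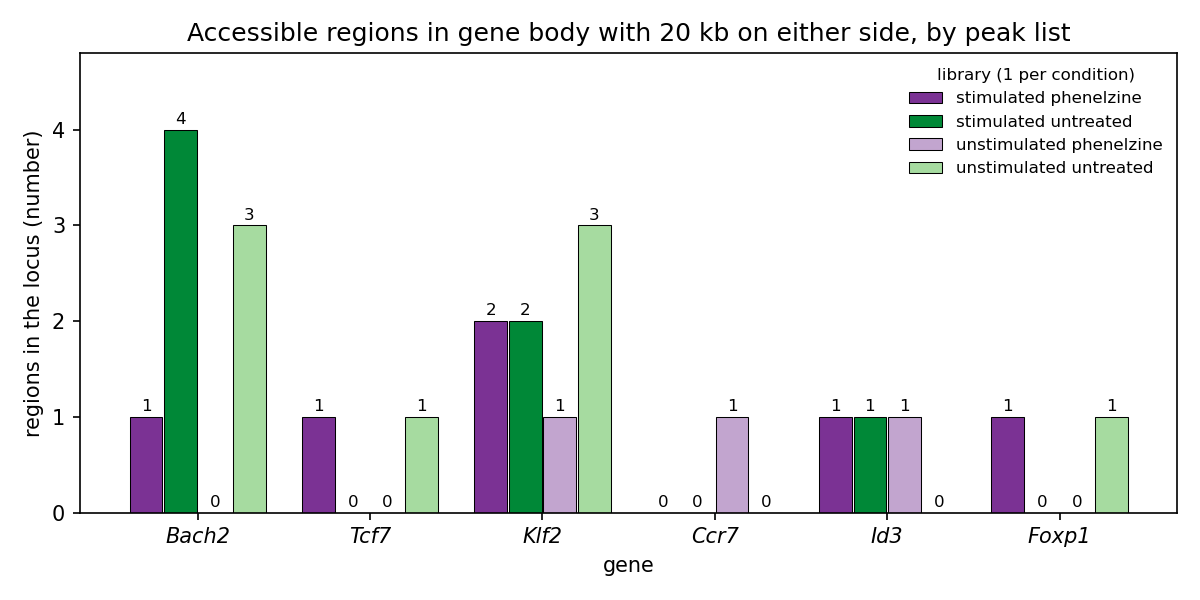
The vertical axis is the number of regions in the gene body with 20 kb on either side, and the horizontal axis the gene. Bars are the 4 libraries, 1 per condition, so there are no error bars. Bach2 has 1 and 4 regions in stimulated phenelzine and stimulated untreated cells and 0 and 3 in unstimulated phenelzine and unstimulated untreated cells, while Tcf7 and Foxp1 each have 1 in the stimulated phenelzine and the unstimulated untreated list.

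Over the 6 loci there were 6 regions in stimulated phenelzine, 7 in stimulated untreated, 3 in unstimulated phenelzine and 8 in unstimulated untreated cells. The unstimulated untreated list thus had the most regions here although it was the shortest list, with 6519 peaks against 9322, 10405 and 7929 in the other lists in the order above. Of the 15 regions 10 (66.7%) were in 1 list alone, against 43.6% of all regions. Bach2 accounts for 7 of the 15 regions and 6 of these 10. The Klf2 promoter was the 1 region in all 4 lists, against 26.8% of all regions. All 10 regions in 1 list were among the 13 away from promoter windows. A region within 20 kb of any of these genes was not unusual in itself, since 58.1% of protein-coding genes had one in at least 1 list, and these 12572 genes form the background below. The background was not matched to the 6 genes for locus length. The Bach2 and Foxp1 loci span 388 and 637 kb of the 1237 kb examined.

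The effect of phenelzine without stimulation was asked by setting unstimulated phenelzine cells against unstimulated untreated cells. Fewer regions with phenelzine were seen at 4 of the 6 genes, Bach2 (0 against 3), Klf2 (1 against 3), Tcf7 (0 against 1) and Foxp1 (0 against 1), where 14.7% of background genes had fewer. More were seen at Ccr7 and Id3 (each 1 against 0), where 27% of background genes had more. The median difference was −1 over the 6 genes and 0 over the background. Of the 10 regions in either list, the phenelzine list alone held 2 (32.6% of all such regions) and the untreated list alone 7 (18.1%). These differences rest largely on weak peaks. With −log10 q of at least 3 they were −1 at Bach2, −1 at Klf2 and 0 at Tcf7, Foxp1, Ccr7 and Id3. With 10 kb on either side the Tcf7 difference was also 0. The 6 genes were chosen with these counts known, so the contrast with the background is a description of them.

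In stimulated cells Bach2 again had the largest difference of the 6 genes with phenelzine. It had fewer regions with phenelzine (1 against 4), the 1 gene of 6 with fewer, where 28% of background genes had fewer. Tcf7 and Foxp1 had more (each 1 against 0; 17.8% of background genes), and Klf2 (2 against 2), Id3 (1 against 1) and Ccr7 (0 against 0) were equal. All 3 regions of Klf2 and Id3 found in either stimulated library were found in both, whereas no region of Bach2, Tcf7 or Foxp1 was. The median difference was 0 both over the 6 genes and over the background. Of the 10 regions concerned, 3 were held with phenelzine alone (21.2% of all such regions) and 4 without it alone (29.5%). The Bach2 difference in stimulated cells rests on weak peaks: it was −3 over all peaks, and 0 both with −log10 q of at least 3 and with lists cut to equal length.

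Stimulation of untreated cells was compared next. Bach2 (4 against 3) and Id3 (1 against 0) had more regions in stimulated than in unstimulated untreated cells, where 40.6% of background genes had more. Klf2 (2 against 3), Tcf7 (0 against 1) and Foxp1 (0 against 1) had fewer, 3 of 6 genes against 7.79% of the background. The median difference was −0.5 over the 6 genes and 0 over the background. Bach2 had the larger number with stimulation, but its regions were mostly different ones: 3 were held by the stimulated list alone, 2 by the unstimulated list alone and 1 by both. Over the 6 genes the stimulated list alone held 4 of 12 regions (43.9% of all regions in either list) and the unstimulated list alone 5 (10.3%).

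In phenelzine-treated cells more regions were seen with stimulation at 4 of the 6 genes, Bach2 (1 against 0), Tcf7 (1 against 0), Klf2 (2 against 1) and Foxp1 (1 against 0), where 27.5% of background genes had more. Ccr7 had fewer (0 against 1; 16.4% of background genes) and Id3 was equal (1 against 1). The median difference was 1 over the 6 genes and 0 over the background. The stimulated list alone held 4 of 7 regions (31.9% of all regions in either list) and the unstimulated list alone 1 (19.9%). This contrast shares each of its libraries with one of the phenelzine contrasts above, and the low count of the unstimulated phenelzine library, 3 regions, enters both.

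The pattern of Tcf7 and Foxp1, with 1, 0, 0 and 1 regions in stimulated phenelzine, stimulated untreated, unstimulated phenelzine and unstimulated untreated cells, was shared by 82 other genes each. Among the wider lists below it was that of Foxp4, a relative of Foxp1. The numbers of Klf2 were shared by 9 other genes, those of Id3 by 541, those of Ccr7 by 345 and those of Bach2 by none.

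A wider list of 23 naive, memory and quiescence genes gave 17 with a region in the locus, where 58.1% of protein-coding genes had one. This list was chosen with earlier results of these data known, so the number is a description and not an enrichment. The survival and homing receptor genes Il7r and S1pr1 had none, and neither had the transcription factor genes Lef1, Satb1, Myb and Gfi1. Of these 17, with stimulation in untreated cells 10 had more regions and 0 fewer, against 40.6% and 7.79% of background genes. With stimulation in phenelzine-treated cells 10 had more and 3 fewer (27.5% and 16.4%). With phenelzine 3 had more and 5 fewer in unstimulated cells (27% and 14.7%), and 3 had more and 7 fewer in stimulated cells (17.8% and 28%). Median differences over the 17 were 1, 1, 0 and 0, in this order, and 0 over the background in each contrast. Klf3 and Bcl6 had 1 region in every list.

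In the genes of this list whose numbers differed, values are given for stimulated phenelzine, stimulated untreated, unstimulated phenelzine and unstimulated untreated cells in that order. Foxo1, the factor that drives Klf2 and Il7r, had 1, 1, 2 and 0 regions. Klf4, a KLF relative that restrains T cell proliferation, had 1, 1, 0 and 0, as had the costimulatory receptor gene Cd27. These genes, and Bcl2 further below, had regions in both stimulated libraries and none in unstimulated untreated cells. The share of background genes with this pattern was not computed. Among antiproliferative genes, Tob1 had 1, 2, 2 and 2, Btg1 3, 1, 1 and 1, and Btg2 2, 3, 1 and 2. Cdkn1b, which encodes the cell cycle inhibitor p27, had 2, 1, 0 and 1. Slfn2, a quiescence gene, had 1, 2, 0 and 1. Tsc1, an inhibitor of mTOR signalling, had 0, 1, 0 and 0, as had Zeb1, a zinc-finger repressor gene. The glucocorticoid-induced gene Tsc22d3 had 1, 1, 3 and 1, and the survival gene Bcl2 3, 1, 0 and 0. The mRNA decay genes Zfp36, Zfp36l1 and Zfp36l2 had 3, 4, 2 and 4, then 2, 3, 0 and 1, then 3, 3, 2 and 1. Cdkn1b, Slfn2 and Zfp36l1 were thus like Bach2 in lacking a region in the unstimulated phenelzine list and in no other. Each had 1 region in unstimulated untreated cells, where Bach2 had 3. Foxo1 (2 against 0), Tsc22d3 (3 against 1) and Zfp36l2 (2 against 1) instead had more regions with phenelzine in unstimulated cells. How many background genes lack a region in that list alone was not counted.

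Genes of proteins that act with the 6 had regions at 9 of 9, where 58.1% of protein-coding genes had one. These partners were also chosen with earlier results of these data known, so their number is a description and not an enrichment. The small MAF genes, whose products pair with BACH2, had 0, 2, 1 and 3 regions at Mafk and 1, 3, 0 and 0 at Mafg, in the same order of libraries. The E protein genes Tcf3 and Tcf12, whose products ID3 binds, had 4 in each list and 1, 2, 1 and 0. Of the TCF-1 partners, Ctnnb1, which encodes beta-catenin, and the corepressor gene Tle4 had 1 in each list, and Tle3 had 3, 3, 2 and 2. Foxp4 had 1, 0, 0 and 1, and Gnai2, the G protein gene through which chemokine receptors signal, 1, 3, 3 and 1. With stimulation 4 had more regions and 2 fewer in untreated cells (40.6% and 7.79% of background genes), and 3 had more and 2 fewer in phenelzine-treated cells (27.5% and 16.4%). With phenelzine 2 had more and 2 fewer in unstimulated cells (27% and 14.7%), and 1 had more and 4 fewer in stimulated cells (17.8% and 28%). Median differences over the 9 were 0 in all 4 contrasts.

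Peaks just past the 20 kb limit were left out of every count above. The nearest lay 20.2 kb before Id3, with −log10 q 1.72 in stimulated phenelzine and 3.51 in stimulated untreated cells. For Foxp1 it lay at 23.8 kb (1.46 in stimulated phenelzine cells). For Bach2 it lay at 29.0 kb, in all 4 lists, with −log10 q 4.32, 5.05, 2.67 and 6.49 in stimulated phenelzine, stimulated untreated, unstimulated phenelzine and unstimulated untreated cells. At this Bach2 peak, as at the Klf2 promoter, the unstimulated phenelzine library had the lowest value and the unstimulated untreated library the highest. The order differed at peaks farther out. At 35.1 kb from Id3 the −log10 q was 2.58 in unstimulated phenelzine and 1.28 in stimulated phenelzine cells. At 45.2 kb from Ccr7 it was 1.48 in unstimulated phenelzine cells. The unstimulated untreated list had no peak at either place. The members just inside the limit were the Tcf7 region at 14448 bp and the Klf2 region at 7933 bp from the gene.

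Of the markers of the labelled cell type, 6 of 10 CD8 T cell markers had a region in the locus, where 58.1% of protein-coding genes had one, and none was at Cd8a, Cd8b1, Cd2 and Zap70. Regions were also present at 4 of 6 myeloid, 2 of 5 B cell, 3 of 3 CD4 and regulatory T cell, 2 of 3 NK, 2 of 4 epithelial, and 1 of 4 stromal and endothelial markers. Those without a region were Csf1r, Itgam, Ms4a1, Cd79b, Pax5, Ncr1, Epcam, Krt18, Col1a1, Pdgfrb and Cdh5. A region at a promoter window was present at 1 CD8 T cell and 1 NK marker, and at 0 markers of each other type. The share of all protein-coding genes in the promoter table was 34.9%. The number of myeloid markers with a region was 3 of 6 in each list, though not always the same markers, and that of B cell markers 2 of 5 in each list. In stimulated phenelzine, stimulated untreated, unstimulated phenelzine and unstimulated untreated cells, CD8 T cell markers had regions at 4, 6, 3 and 4 of 10. CD4 and regulatory markers had them at 2, 3, 1 and 1 of 3, NK markers at 2, 2, 1 and 1 of 3, epithelial markers at 2, 1, 0 and 0 of 4, and stromal and endothelial markers at 1, 1, 1 and 0 of 4. Their part in the results was not tested.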

How the data were processed

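ATAC-seq peaks of 4 libraries, 1 per condition, were analysed. The submitters' processing notes name Bowtie2 2.2.5, HOMER, MACS2, Picard and Trimmomatic 0.33, and build mm10, without their roles. Settings and filters were not stated. The authors deposited 1 list of broad peaks per library, with a score that is 10 times −log10 q rounded down (not used), fold enrichment as a ratio, and −log10 p-value and −log10 q-value. The tags less120 and bedpe4macs in the deposited peak names are not explained. If the first is a limit on fragment length, the lists describe short fragments only.

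Peaks on chromosomes 1 to 19 and X were merged where they overlapped by at least 1 bp. Gene bodies and start sites came from RefSeq tables for GRCm38, the same build, which held no exons. Total reads are not in the lists, so depth is unknown. Background pileup was solved in each list from its most frequent fold and −log10 p, with fold as (pileup + 1)/(background + 1) and p as a Poisson tail. A peak's pileup was then fold × (background + 1) − 1, which takes local background to be that value. Merging was tested on simulated, widely spaced peaks. The background calculation was tested on values made with the same formulas, which checks the code and not whether the deposited values follow them. Analyses used Python 3.11.15, pandas 2.3.3, numpy 2.4.6 and scipy 1.17.1. No p-value was computed between conditions, and intervals are exact at 95%. The genes and lists were chosen with earlier results of these data known. All 6 genes are named. Neighbours are named where a region lies in them or a member region lies near their end, and genes of the wider lists where they have a region. A further 2 genes planned for the wider list are not reported here. The 6 wider-list genes without one, the marker genes at 0 and the motifs were named after their values were seen. The alternatives varied the peak threshold, list length, locus size and overlap.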

Additional observations from a re-analysis of the deposited data

Results flagged for a closer look

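Tcf7, Klf2 and Foxp1 are listed because the difference with stimulation had opposite signs in the 2 drug arms. For each of them it was 1 region in phenelzine-treated cells and −1 in untreated cells, so the arms differed by 2 regions. For Tcf7 and Foxp1 the difference with phenelzine was likewise 1 in stimulated cells and −1 in unstimulated cells, again 2 regions apart. For these genes they are the same 4 counts read the other way. The Klf2 difference with phenelzine was 0 in stimulated and −2 in unstimulated cells, so its signs were not opposite. Opposite signs of the stimulation difference between the drug arms were seen at 9.43% of the 12572 protein-coding genes with a region. The matching share for the phenelzine difference was not computed. The opposite signs were lost for all 3 genes with −log10 q of at least 3, for Tcf7 and Foxp1 with lists of equal length, for Tcf7 with 10 kb on either side, and for Tcf7 and Klf2 in gene bodies alone. The difference between arms was not tested, since each condition had 1 library, and every peak behind these signs stood for an implied pileup of 4.71 to 5.12 fragments.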

How the results depend on the processing

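No paired analysis was possible because each condition had 1 library, and for the same reason no library could be left out. The counts rest on weak peaks. With −log10 q of at least 3, the 6 loci held 1 region in stimulated phenelzine, 1 in stimulated untreated, 0 in unstimulated phenelzine and 2 in unstimulated untreated cells. The Bach2 difference with stimulation in untreated cells then turned to −1. With lists cut to the length of the shortest (6519 peaks) the counts were 1, 1, 1 and 8, the summed difference with stimulation in untreated cells was −7, and that of Bach2 −3. The shortest list was the unstimulated untreated one, which stayed whole, so only the other lists could lose regions. Differences taken against it could therefore only fall or stay the same under this cut. With 50 kb on either side the counts were 10, 13, 6 and 10, and the summed difference with stimulation in untreated cells reversed to 3, from −1 with 20 kb. In gene bodies alone they were 3, 5, 1 and 5. The causes were not tested. Summed differences otherwise kept their sign or became 0. With loci of 10 kb Tcf7 had no region in any list, and the summed differences were 0 for stimulation in untreated cells and −2 for phenelzine in stimulated cells, in place of −1 each. Merging over gaps of up to 200 bp, an overlap of at least 0.5 of the shorter peak and merging over gaps of up to 500 bp (added after seeing the data) changed no list's count or difference at any of the 6 genes. Gaps of up to 500 bp did lower the Bach2 regions over all lists from 7 to 6. The 2 Bach2 regions 263 bp apart became 1, held by both stimulated lists. Counts above of regions in 1 list alone, or shared between lists, are those without this merging. The Bach2 difference with phenelzine in stimulated cells was 0, in place of −3, with −log10 q of at least 3 and with lists of equal length. In unstimulated cells it was −1 and −3.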
